A study of Enchytraeus albidus with 15 samples.

Results

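Silver nanoparticles (Ag-NPs) were compared with silver nitrate (AgNO3) at the same nominal soil concentration of 100 mg/kg in whole adult Enchytraeus albidus, the white potworm, a small soil oligochaete. The comparison used 6 of the 15 arrays of the series. The tested arrays were 3 of worms in OECD soil with Ag-NPs at 100 mg/kg (Ag-NPs 100), and they were set against 3 of worms in OECD soil with AgNO3 at 100 mg/kg (AgNO3 100). The other 9 arrays, 3 each of Ag-NPs at 200 mg/kg, AgNO3 at 200 mg/kg and clean OECD soil (control), entered the same statistical fit and gave context. Exposure lasted 2 days at 20 °C with 10 worms per vessel of 25 g moist soil. The worms of a vessel were pooled, so 1 array shows the average of 1 vessel. No genotype or strain is given in the labels.

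The unit of measurement was a probe, spotted 14 or 15 times on a one-colour array. Of the 1035 probes on the array, 433 were followed because they were well above background on all 3 arrays of Ag-NPs 100 or of AgNO3 100. Of these, 321 met that rule with Ag-NPs and 432 with AgNO3, and 320 met it with both forms. The files name probes by clone or contig, hold no gene names and no probe sequences, and no table pairing probes with genes was used, so no gene, pathway or tissue marker is named here. Levels are the log2 processed signal of a probe relative to the 75th percentile of its array, so 0 marks that percentile and 1 unit is a doubling.

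Silver nitrate is a soluble salt that gives silver ions, which bind the thiol groups of proteins and can displace or mimic other metals at their binding sites. Silver nanoparticles release such ions as their surface oxidises and can also enter an organism as particles. Invertebrates commonly meet metals with metal-binding proteins such as metallothioneins and with antioxidant and heat shock proteins. Comparing both forms at 1 concentration asks whether the worms' transcript levels differ with the form in which silver is given. In whole bodies, fewer cells of a type and less RNA per cell cannot be told apart.

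The groups also differed in where and when their arrays were run. All 3 Ag-NPs 100 arrays lay on slide 3, scanned on the second day, whereas AgNO3 100 replicate 1 lay on slide 1 and replicates 2 and 3 on slide 2, all scanned on the first day. Silver form, slide and scan day therefore cannot be told apart within these 6 arrays. Each slide held 1 control array, which gives an indirect link between the groups. The 75th percentile of the processed signal was 44.5, 18.6 and 17.3 on Ag-NPs 100 replicates 1, 2 and 3, against 19.7, 54.3 and 21.2 on AgNO3 100 replicates 1, 2 and 3. Each group thus held 1 bright and 2 dimmer arrays. The negative-control spread was 4.27 to 9.87 on the Ag-NPs 100 arrays and 3.03 to 3.72 on the AgNO3 100 arrays. On the Ag-NPs 100 arrays 383, 355 and 483 probes were well above background, against 455, 589 and 466 on the AgNO3 100 arrays. The number of arrays limits the precision of all that follows.

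In the fit of all 15 arrays, 5 probes differed between the forms at 100 mg/kg, 1 of them higher and 4 lower with Ag-NPs (limma, adjusted p below 0.05). They made up 1.12% of the 446 probes tested across the array, 0.224% for the higher and 0.897% for the lower direction. All 5 were among the 433 followed, which had to be bright in at least 1 group, so these counts carry no weight as a rate. Only P5_D7_T7_1329838 among the 5 was well above background on all 6 arrays.

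P5_D7_T7_1329838 was the probe that was higher with Ag-NPs. Its level was 3.28, 3.55 and 3.02 on Ag-NPs 100 replicates 1, 2 and 3, against 1.19, 0.10 and 0.51 on AgNO3 100 replicates 1, 2 and 3. Every Ag-NPs array lay above every AgNO3 array, and the gap between the groups was wider than the range within either. The group means were 3.28 ± 0.27 with Ag-NPs and 0.60 ± 0.55 with AgNO3 (SD, n = 3 each), a log2 difference of 2.68 ± 0.57 (SE, limma adjusted p = 0.0315), or 6.42-fold. The 95% interval of the difference ran from 1.47 to 3.89.

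In clean soil the probe stood near its level with Ag-NPs. P5_D7_T7_1329838 averaged 3.68 ± 0.91 in clean soil (SD, n = 3), and Ag-NPs differed from it by -0.40 ± 0.57 (SE, limma adjusted p = 0.996) whereas AgNO3 differed by -3.08 ± 0.57 (limma adjusted p = 0.0333). Relative to the control array of its own slide, the probe stood at 0.45, 0.71 and 0.18 on the Ag-NPs 100 arrays and at -3.44, -3.46 and -3.06 on the AgNO3 100 arrays. AgNO3 200 replicate 3, which shared slide 3 with the Ag-NPs 100 arrays, read 0.95, below all 3 of them. Ag-NPs 200 replicate 3, on the same slide, read 1.43 and was also below all 3. With slide as a block the difference was 3.52 ± 0.58 (SE, limma adjusted p = 0.02), and P5_D7_T7_1329838 was the only one of the 5 to pass in that fit. It passed in 19 of its 33 alternatives, with an adjusted p between 0.00148 and 0.168 over them.

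Ealb_Met_P6_D6_SP6_2090551 was lower with Ag-NPs. It read -2.56, -0.21 and -0.65 on Ag-NPs 100 replicates 1, 2 and 3, against 1.19, 0.65 and 2.17 on AgNO3 100 replicates 1, 2 and 3. The groups did not overlap, although the Ag-NPs arrays spread widely and replicate 1, the lowest, was not well above background. The means were -1.14 ± 1.25 with Ag-NPs and 1.34 ± 0.77 with AgNO3 (SD, n = 3 each), a log2 difference of -2.48 ± 0.55 (SE, limma adjusted p = 0.042), or 5.57-fold lower with Ag-NPs. In clean soil it averaged -1.27 ± 0.35, so that Ag-NPs differed from control by 0.13 ± 0.55 (limma adjusted p = 0.996) and AgNO3 by 2.61 ± 0.55 (limma adjusted p = 0.0363). The control array of slide 3, the only one that shared a slide with the Ag-NPs 100 arrays, was not above background for this probe. With slide as a block the difference was -2.78 ± 0.79 and no longer passed (limma adjusted p = 0.279). Without Ag-NPs 100 replicate 1, the array below background, it was -1.77 and did not pass (limma adjusted p = 0.127). It passed in 16 of its 32 alternatives.

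P1_F2_T7_1328821 was dim throughout, and no Ag-NPs 100 array measured it well above background. Its level was -4.00, -3.48 and -3.69 there, against -1.74, -2.04 and -0.68 on AgNO3 100 replicates 1, 2 and 3. The arrays did not overlap, but the Ag-NPs readings are only upper bounds. Such a probe is given a bound, the AgNO3 mean against the higher, per array, of its own signal and the lowest signal of any probe well above background. Bounds compare means and leave out sampling error, so an at least value, here and below, holds for the means only. On that scale the level with Ag-NPs was lower by at least 1.14-fold (limma adjusted p = 0.0118 on the measured means of -3.72 ± 0.26 with Ag-NPs and -1.49 ± 0.71 with AgNO3, SD, n = 3 each). The control mean was -3.02 ± 0.34, with 1 of 3 control arrays above background. On measured means, Ag-NPs differed from it by -0.71 ± 0.37 (SE, limma adjusted p = 0.996) and AgNO3 by 1.53 ± 0.37 (limma adjusted p = 0.0363).

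Ealb_Met_P10_G3_SP6_2090800 and Ealb_Met_P10_F3_SP6_2090799 had the same detection pattern. Ealb_Met_P10_G3_SP6_2090800 read -3.58, -2.72 and -3.06 on the Ag-NPs 100 arrays, none above background, against -1.35, -1.79 and -0.95 on the AgNO3 100 arrays. It was at least 1.24-fold lower with Ag-NPs (limma adjusted p = 0.0164 on the measured means, -3.12 ± 0.43 with Ag-NPs and -1.36 ± 0.42 with AgNO3, SD, n = 3 each). Ealb_Met_P10_F3_SP6_2090799 read -2.86, -2.24 and -3.48 on the Ag-NPs 100 arrays, again none above background, against -0.96, -1.26 and -0.66 on the AgNO3 100 arrays. It was at least 1.64-fold lower with Ag-NPs (limma adjusted p = 0.0172 on the measured means, -2.86 ± 0.62 with Ag-NPs and -0.96 ± 0.30 with AgNO3, SD, n = 3 each). Neither form passed against clean soil for these probes. Their log2 differences from control, again on measured means, were -1.34 ± 0.32 with Ag-NPs and 0.42 ± 0.32 with AgNO3 for Ealb_Met_P10_G3_SP6_2090800 (SE, limma adjusted p = 0.4 and 0.945). For Ealb_Met_P10_F3_SP6_2090799 they were -1.21 ± 0.37 with Ag-NPs and 0.68 ± 0.37 with AgNO3 (limma adjusted p = 0.705 and 0.616). With slide as a block these 2 and P1_F2_T7_1328821 had log2 differences between the forms of -1.82 ± 0.48, -1.81 ± 0.54 and -1.90 ± 0.54, and none passed (limma adjusted p = 0.279, 0.362 and 0.279). Over their 32 alternatives they passed in 23, 21 and 24, in the same order. Each of these probes entered the test only by being above background on all 3 AgNO3 100 arrays, the group where it was high. Their adjusted p is therefore no independent support for a difference. With no filter none of them passed (limma adjusted p = 0.0957, 0.0957 and 0.0808, in the same order).

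**Figure D1:**
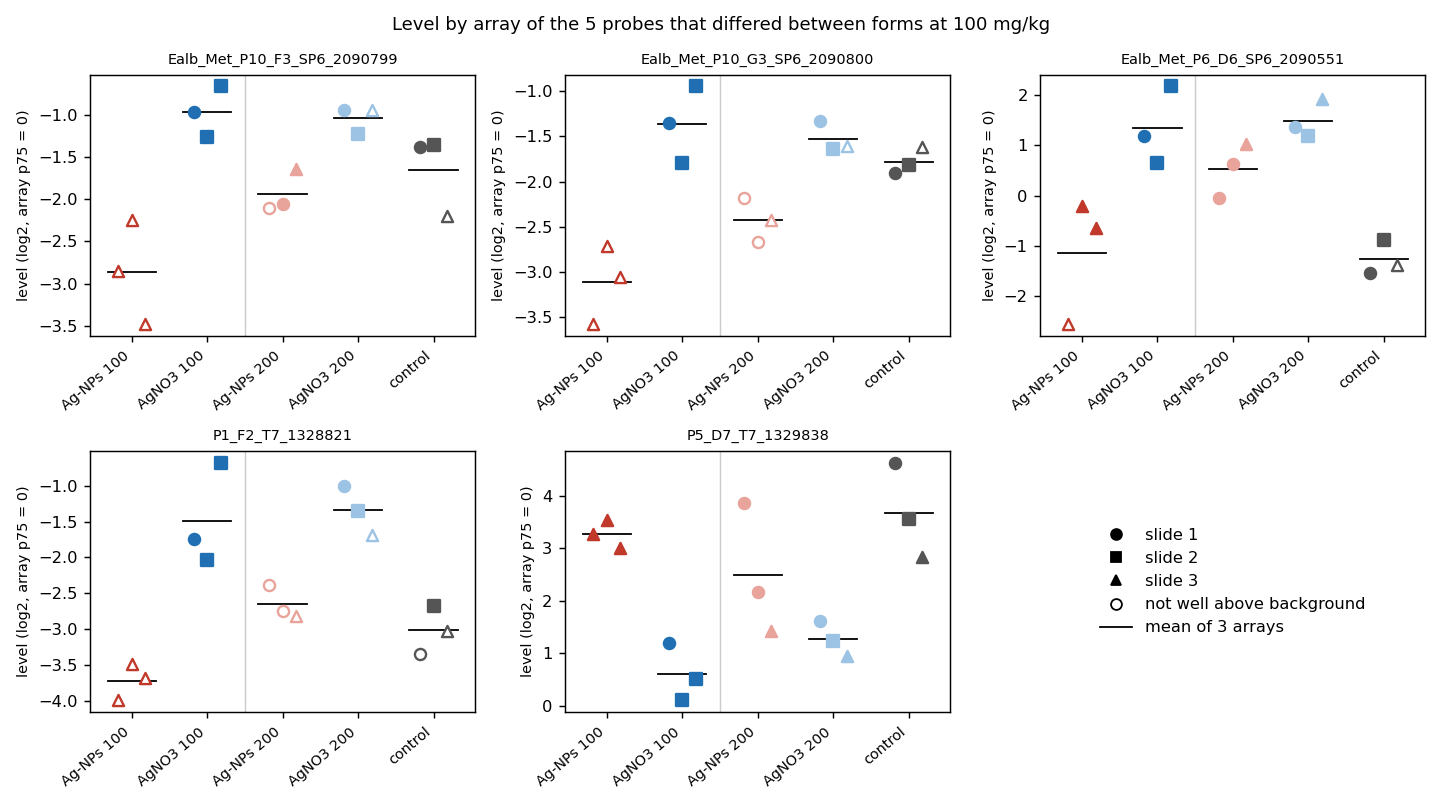
Level (log2 relative to the array's 75th percentile, y axis) of the 5 probes that differed between forms at 100 mg/kg, on each of the 15 arrays by group, with the marker shape giving the slide, open markers for arrays on which the probe was not well above background, and bars for the mean of 3 arrays. The Ag-NPs 100 arrays, all on slide 3, lie above the AgNO3 100 arrays for P5_D7_T7_1329838 and below them for the other 4, of which 3 were open on every Ag-NPs 100 array.

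The count of 5 moved with the arrays and the processing. It was 0 without Ag-NPs 100 replicate 3 or without AgNO3 100 replicate 3, 1 without AgNO3 100 replicate 1, and 3 without control replicate 2 or AgNO3 200 replicate 2. The split of 1 higher and 4 lower was 1 and 12 after centring on the array median, 2 and 3 when only probes detected on every array set the percentile, 0 and 1 with spike-in scaling, 0 and 0 with normexp and quantile normalization, and 0 and 4 in the authors' values. The median log2 difference of all 446 probes was -0.15 in the reported scaling, -0.17, -0.05, 0.11 and -0.03 in the first 4 of those, and -0.37 in the authors' values. It was not subtracted from the differences given here. Slide as a block left 1 probe, and scan day as a block left 2, both higher with Ag-NPs. Each of the 11 probes named by the rule given with the processing was fitted in 32 or 33 alternatives. The direction of its difference was the same in all of them, but many could not change it. Leaving out a control or 200 mg/kg array, adding the replicate block or testing another set of probes left each difference as it was. The slide and scan-day blocks did change the differences, and the direction held there. The 11 were chosen by p or bound on these same arrays, so the number of alternatives carries no weight. Probes named only for passing at 200 mg/kg are not among these 11.

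Over the 433 probes the log2 difference had a median of -0.15 and ran from -2.48 to 2.68, with 90% of the probes between -1.25 and 0.57. It was above 0 in 143 and below 0 in 290. Across all 446 tested probes the median was likewise -0.15, with 152 above and 294 below 0. The way probes entered favours the lower side, since 30 were detected on no Ag-NPs array and all 3 AgNO3 arrays, and 82 on 1 or 2 Ag-NPs arrays and all 3 AgNO3 arrays. Only 1 probe entered through Ag-NPs alone. Among the 320 probes detected on all 6 arrays the median was -0.07, with 125 above and 195 below 0. Of these, 7 were more than 2-fold higher and 15 more than 2-fold lower with Ag-NPs. When these 320 alone were tested none passed in limma, 23 had an unadjusted p below 0.05, and P5_D7_T7_1329838 had an adjusted p of 0.0996.

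All 3 Ag-NPs arrays lay above all 3 AgNO3 arrays for 9 of the 433 probes and below them for 46. The corresponding shares of the 446 tested probes were 2.24% and 10.3%. Among the 320 probes detected on all 6 arrays the counts were 9 and 26, so the other probes of the 46 include readings not above background. The typical standard error of a difference was 0.45 (median over the 433). The 95% interval excluded a 4-fold difference in either direction for 352 probes (81.3%) and a 2-fold difference for 94 (21.7%). Among the 320 probes detected on all 6 arrays the counts were 271 (84.7%) and 89 (27.8%). For most of these 320 the interval thus excluded a 4-fold but not a 2-fold difference. Intervals of the other probes, and of the 11 saturated on all 6 arrays, do not limit the true difference. All these intervals leave slide out, and the slide block raised the median standard error of the tested probes from 0.45 to 0.63. Repeated spots were closer than arrays, with a median SD of 0.168 to 0.273 between the spots of a probe on the 6 arrays. Between the arrays of a group the median SD of the 433 probes was 0.58 with Ag-NPs 100 and 0.49 with AgNO3 100, against 0.43 in control.

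**Figure D2:**
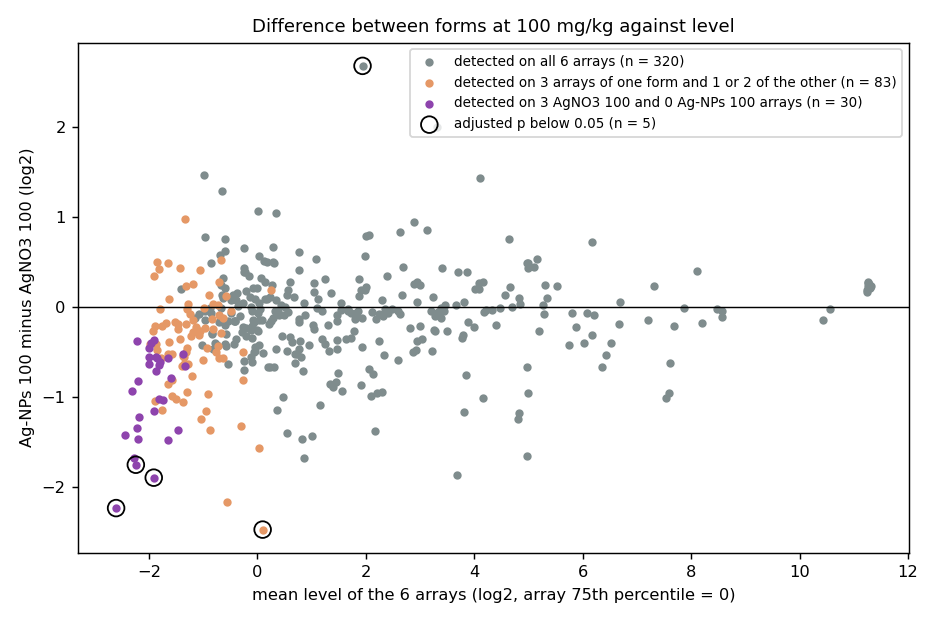
Log2 difference between forms at 100 mg/kg (Ag-NPs minus AgNO3, y axis) against the mean level of the 6 arrays (x axis) for the 433 probes, coloured by how many arrays of each form detected them, with the 5 probes past the threshold circled. Probes detected on all 6 arrays scatter around -0.07, and the 30 detected on AgNO3 arrays and no Ag-NPs array lie below 0 at the dim end.

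Among dim probes the difference between forms depended on which probes were counted. Of the 109 dimmest of the 433 by mean level over the arrays, with levels up to -0.84, the median log2 difference was -0.42, but only 12 were detected on all 6 arrays, and their median was -0.07, with 9 lower and 3 higher with Ag-NPs. In the next 3 sets of 108 probes, in order of level, 93, 107 and 108 were detected on all 6 arrays. Their medians were -0.07, -0.09 and -0.03, and 52, 75 and 59 of them were lower with Ag-NPs. Among probes detected on all 6 arrays, the medians of the 4 sets thus lay between -0.09 and -0.03. At the bright end, 11 probes were saturated on all 6 arrays, so that a difference between the forms could not show there.

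By name the probes are contigs or clones of several series, with prefixes that the files do not explain. Of the 433 probes, 86 were contigs (of 171 on the array), 165 were Ealb_Met clones (of 345), 68 were Ealb_Pest clones (of 198) and 114 were other clones (of 321). Over all of these, including those that entered through AgNO3 alone, the median log2 differences were -0.05, -0.17, -0.13 and -0.23, beside -0.15 over all tested probes and a median standard error of 0.44 to 0.46 in each kind. More than a 2-fold difference in either direction was seen in 4 of 86 contigs, 13 of 165 Ealb_Met, 3 of 68 Ealb_Pest and 26 of 114 other clones. Over all 446 tested probes 8 were more than 2-fold higher and 39 more than 2-fold lower. Among the 320 detected on all 6 arrays these counts were 7 and 15, so the counts by kind include readings not above background. The probes past the threshold were 3 Ealb_Met clones, all lower with Ag-NPs, and 2 other clones, 1 higher and 1 lower.

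Detection was uneven between the forms. A set of 30 probes (6.93% of the 433) was well above background on no Ag-NPs 100 array and on all 3 AgNO3 100 arrays, and 0 probes showed the reverse. They were dim where they were measured, with AgNO3 100 means between -2.03 and -0.77, against a median of 0.65 for the other probes followed. The bound on the fold was above 1 for 21 of the 30, at 1.06 to 1.87 with a median of 1.20. P3_5G_T7_1329688 had the largest bound, at least 1.87-fold lower with Ag-NPs, and Ealb_Met_P9_D10_SP6_2090758 the second largest, at least 1.70-fold. Neither passed (limma adjusted p = 0.129 and 0.184 on the measured means). With slide as a block the limma adjusted p was 0.984 for each, and they passed in 4 and 2 of their 32 alternatives. P3_5G_T7_1329688 read -3.01, -1.73 and -1.68 on the Ag-NPs 100 arrays and -0.78, -1.26 and -0.27 on the AgNO3 100 arrays, so the groups did not overlap. P1_F2_T7_1328821, Ealb_Met_P10_G3_SP6_2090800 and Ealb_Met_P10_F3_SP6_2090799 belong to the 30, which were chosen by a difference in detection between the same arrays.

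The other arrays showed how the same 30 probes were detected outside these 2 groups. On slide 3, which carried the Ag-NPs 100 arrays, 18 of the 30 were above background on Ag-NPs 200 replicate 3, 0 on AgNO3 200 replicate 3 and 0 on control replicate 3. On slides 1 and 2, 14 and 20 were above background on Ag-NPs 200 replicates 1 and 2, 27 and 18 on AgNO3 200 replicates 1 and 2, and 23 and 27 on control replicates 1 and 2. The lowest level at which any probe was well above background was -2.18, -1.31 and -1.53 on the Ag-NPs 100 arrays and -1.98, -3.51 and -1.89 on the AgNO3 100 arrays. On slide 3 it was -0.30 on AgNO3 200 replicate 3 and -0.78 on control replicate 3. The part of slide, scan day and background spread in this detection difference was not tested.

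**Figure D3:**
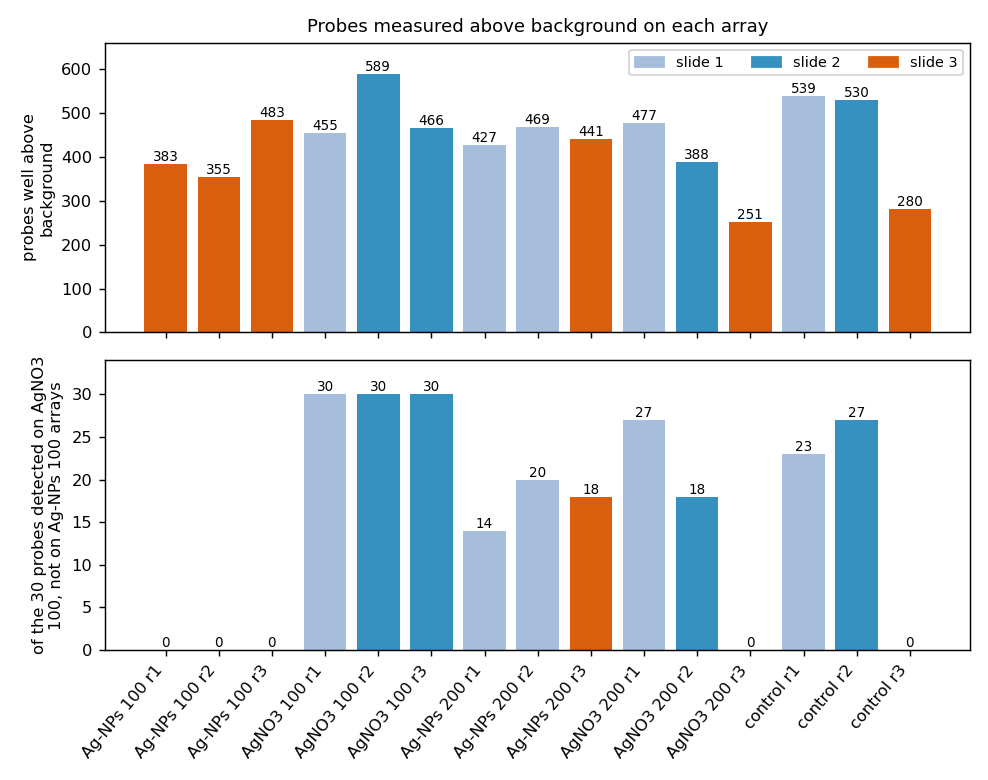
Number of probes well above background on each of the 15 arrays (upper bars, of 1035) and number among the 30 probes detected on all AgNO3 100 and no Ag-NPs 100 arrays (lower bars), coloured by slide. By the way they were chosen, the 30 probes are at 0 on the Ag-NPs 100 arrays and at 30 on the AgNO3 100 arrays. On the other arrays of slide 3 they are at 0 on control and AgNO3 200 replicate 3 and at 18 on Ag-NPs 200 replicate 3. The remaining arrays, on slides 1 and 2, lie between 14 and 27.

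Among probes measured on all 6 arrays and not yet named, the 2 with the smallest p in each direction were taken, and none of the 4 passed. Their groups did not overlap, beside 2.24% of all tested probes on the higher and 10.3% on the lower side. The 4 were chosen by p on these same arrays, so nothing is read from that. P2_B1_T7_1328894 read 4.41, 4.42 and 4.10 on Ag-NPs 100 replicates 1, 2 and 3, against 2.70, 2.02 and 2.20 on AgNO3 100 replicates 1, 2 and 3. The groups stood well apart, with a log2 difference of 2.00 ± 0.48 (SE, limma adjusted p = 0.0593), or 4.01-fold. Clean soil gave 4.44 ± 0.73 (SD, n = 3). The difference was 2.57 ± 0.51 with slide as a block (limma adjusted p = 0.0514), and the probe passed in 10 of its 33 alternatives. P2_5A_T7_1328919 read -1.27, 0.63 and -0.12 with Ag-NPs 100 against -1.53, -2.03 and -1.63 with AgNO3 100. Its groups did not overlap but came close, and the log2 difference was 1.47 ± 0.44 (limma adjusted p = 0.134). It was 1.98 without Ag-NPs 100 replicate 1 and passed (limma adjusted p = 0.042), but 1.03 without replicate 2 and did not (0.438). With slide as a block it was 1.06 ± 0.63 (SE, limma adjusted p = 0.984), and P2_5A_T7_1328919 passed in 3 of its 33 alternatives.

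On the lower side, Ealb_Met_P7_G12_SP6_2090688 read 1.51, 3.42 and 3.35 on the Ag-NPs 100 arrays and 4.33, 4.06 and 5.49 on the AgNO3 100 arrays. Its log2 difference was -1.87 ± 0.50 (SE, limma adjusted p = 0.114), beside a control mean of 2.59 ± 0.36 (SD, n = 3). Without Ag-NPs 100 replicate 1 the difference of Ealb_Met_P7_G12_SP6_2090688 was -1.25 (limma adjusted p = 0.276). Ealb_Met_P3_G12_SP6_2090418 read 3.26, 4.50 and 4.68 on the Ag-NPs 100 arrays and 5.55, 5.18 and 6.69 on the AgNO3 100 arrays, a log2 difference of -1.66 ± 0.45 (limma adjusted p = 0.116). Its control mean was 3.62 ± 0.46. With slide as a block the differences of Ealb_Met_P7_G12_SP6_2090688 and Ealb_Met_P3_G12_SP6_2090418 were -2.16 ± 0.70 and -1.74 ± 0.65 (SE, limma adjusted p = 0.439 and 0.638). They passed in 5 and 4 of their 33 alternatives. In both probes the Ag-NPs arrays lay below every AgNO3 array, and Ag-NPs 100 replicate 1, the brightest of its group, was the lowest.

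**Figure D4:**
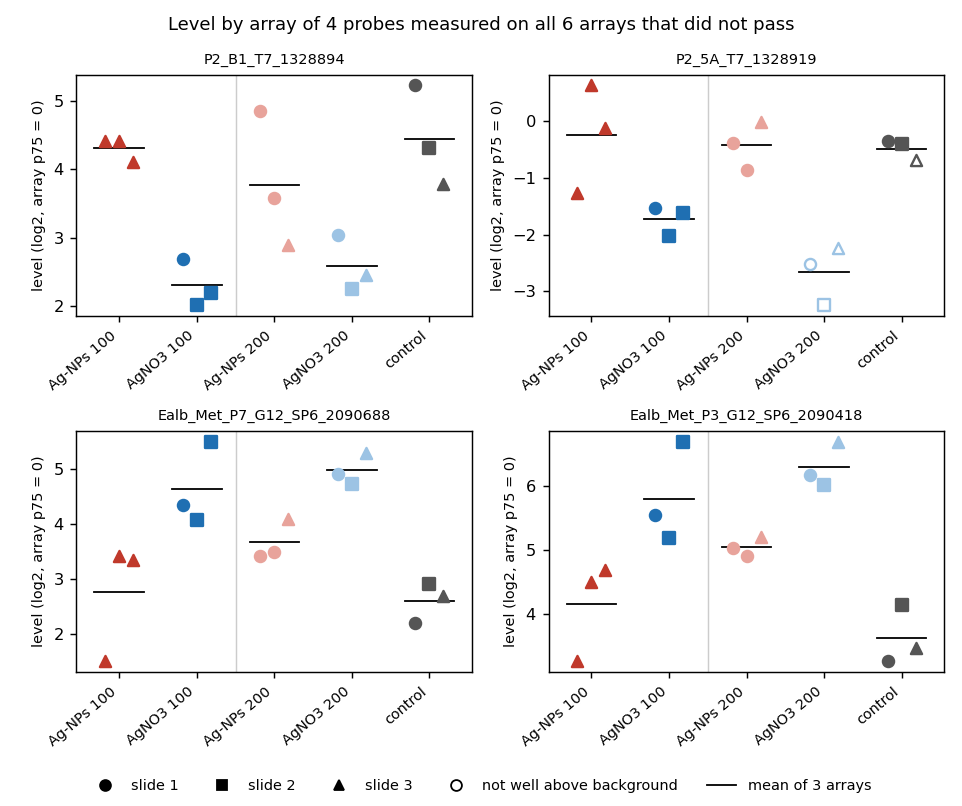
Level (log2 relative to the array's 75th percentile, y axis) on each array by group for the 2 probes in each direction with the smallest p among those measured on all 6 arrays that did not pass, with markers as for slide and detection and bars for the mean of 3 arrays. The Ag-NPs 100 and AgNO3 100 arrays do not overlap in any of the 4, which were chosen by p on these same arrays.

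Against clean soil the 2 forms had different numbers of changed probes. Both comparisons use the same 3 control arrays, and the AgNO3 comparison shares its silver arrays with the comparison between forms, so the values are given side by side only. Ag-NPs 100 changed 0 of the 446 probes (0%) by limma. Its smallest adjusted p was 0.4, and 10 probes had an unadjusted p below 0.05. AgNO3 100 changed 13 (2.91%), of which 11 rose and 2 fell. The 11 that rose with AgNO3 had log2 differences from control of -0.71 to 1.29 (median 0.27) with Ag-NPs and of 1.45 to 2.61 (median 1.69) with AgNO3. Between the forms the 11 ranged from -2.48 to -0.28 (median -1.41). In 10 of the 11 all Ag-NPs arrays lay below all AgNO3 arrays, against 10.3% of all tested probes. The 11 were chosen for high values on these AgNO3 100 arrays, so nothing is read from that count. The 2 that fell, P5_D7_T7_1329838 and P2_B1_T7_1328894, had -0.40 and -0.13 with Ag-NPs against -3.08 and -2.13 with AgNO3. Of the 13, 3 also passed between the forms. The count of 0 for Ag-NPs was 1 with brightness as a covariate. The count of 13 for AgNO3 was 2 with slide as a block, 6 with scan day as a block, 8 with the replicate block, 21 with brightness as a covariate and 108 with array weights. It was 2 when only probes detected on every array set the percentile, 3 with spike-in scaling, 0 with no filter and 0 in the authors' values. It was 25 without Ag-NPs 100 replicate 1, 4 without Ag-NPs 200 replicate 3 and 1 without control replicate 3. It was 0 when any 1 of AgNO3 100 replicates 1 and 3, Ag-NPs 200 replicate 2 and control replicates 1 and 2 was left out.

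The comparison of forms at 200 mg/kg used other arrays, 2 of its Ag-NPs arrays lying on slide 1 and 1 on slide 3, and its AgNO3 arrays 1 on each slide. All 5 probes that differed at 100 mg/kg had the same sign at 200 mg/kg, as did 54.5% of all 446 tested probes. P5_D7_T7_1329838 had a log2 difference of 1.22 ± 0.57 there (SE, limma adjusted p = 0.158), Ealb_Met_P6_D6_SP6_2090551 -0.96 ± 0.55 (0.237) and P1_F2_T7_1328821 -1.31 ± 0.37 (0.0752). Ealb_Met_P10_G3_SP6_2090800 had -0.90 ± 0.32 and Ealb_Met_P10_F3_SP6_2090799 -0.90 ± 0.37 (limma adjusted p = 0.114 and 0.121). For P1_F2_T7_1328821 and Ealb_Met_P10_G3_SP6_2090800 no Ag-NPs 200 array and only 2 of 3 AgNO3 200 arrays were above background, so these differences rest on measured means and give no fold. None passed over all tested probes. At 200 mg/kg 4 of the 5 had an unadjusted p below 0.05 (limma), as did 139 of all 446 tested probes. The change of the form difference with concentration did not pass for any of the 5 (limma adjusted p = 0.42 for each). For the 3 probes not above background on any Ag-NPs 100 array, the size of the difference at 100 mg/kg was not measured and cannot be ranked against that at 200 mg/kg. The interaction between form and concentration had 0 probes past the threshold (0% by limma) and 51 with an unadjusted p below 0.05.

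The probes that passed at 200 mg/kg were 5 others, 1.12% of those tested, 3 higher and 2 lower with Ag-NPs. They are named here after their values were seen. Contig11, Ealb_Met_P4_A3_T7_2175248 and P2_5A_T7_1328919 were higher, and their log2 differences at 100 mg/kg were 1.07, 0.34 and 1.47. P2_5A_T7_1328919 was by its means at least 2.04-fold higher at 200 mg/kg, a bound without sampling error, since no AgNO3 200 array measured it above background (limma adjusted p = 0.0315 on measured means). Ealb_Met_P8_C1_SP6_2090691 was lower at 200 mg/kg, with a log2 difference of -2.45 there and 0.11 at 100 mg/kg. Ealb_Met_P6_D3_SP6_2090528 was lower too, with -1.66 there and -0.61 at 100 mg/kg. Across the 433 probes the differences at 100 and 200 mg/kg had a Pearson's r of 0.31 and a Spearman's rho of 0.29, and 54.3% had the same sign. These are descriptions across probes, which are not independent replicates, and the arrays of both concentrations share slides 1 to 3. The median difference was -0.15 at 100 mg/kg and 0.18 at 200 mg/kg.

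**Figure D5:**
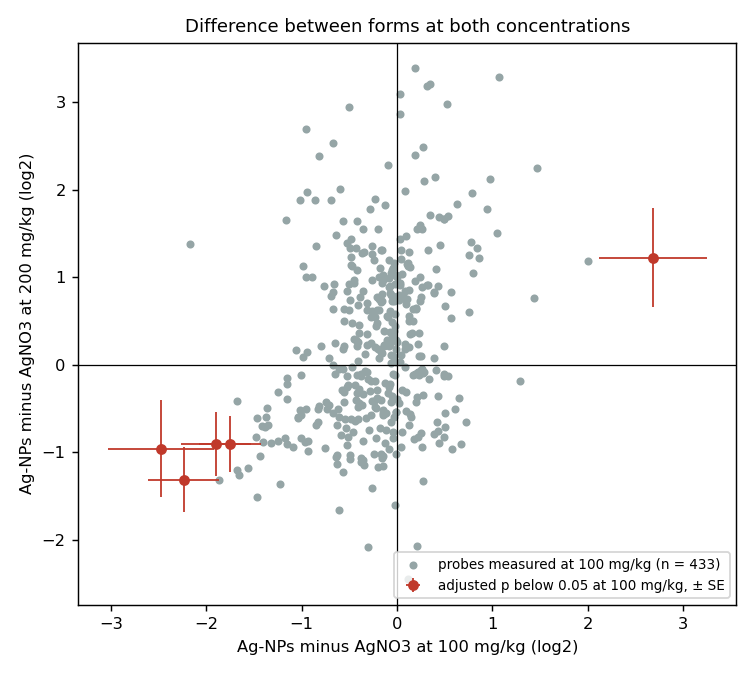
Log2 difference between forms (Ag-NPs minus AgNO3) at 200 mg/kg (y axis) against that at 100 mg/kg (x axis) for the 433 probes, with the 5 probes past the threshold at 100 mg/kg shown with standard errors. All 5 have the same sign at both concentrations, and 3 of them were not above background on any Ag-NPs 100 array, so their position along the x axis rests on measured means.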

How the data were processed

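Per the file headers and the submitters' processing notes, the authors' deposited scanner files hold one-colour (Cy3) spot intensity on a linear scale from Agilent Feature Extraction 10.5.1.1, background-subtracted within the array and not scaled between arrays. The authors' deposited table of log2 values per spot served as an alternative; the sources used here do not give its normalization. Control spots (536 of 15744) and outlier spots did not enter. The log2 signal was averaged per probe and the array's 75th percentile subtracted. A probe was well above background on an array when at least a share of 0.5 of its spots was, and one found so on all 3 arrays of any group was tested (446 probes). The edge of the rule was narrow: 14 members had a share under 0.6, and 4 probes left out had one over 0.4.

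Tests used limma 3.58.1 in R 4.3.3 (lmFit, eBayes) on all 15 arrays with group as the only term (10 residual degrees of freedom). P-values had Benjamini-Hochberg adjustment over the 446 probes. The fit was checked on simulated data with independent normal noise. These had no slide, scan-day or background effect, so that check does not cover those. Errors of differences are standard errors, and intervals are 95%. Slide and scan day come from the headers. Named probes were those past the threshold, the 2 smallest p in each direction among probes detected on all 6 arrays, and the 2 largest bounds among probes detected with one form only. No clone was read from both ends, so that part of the naming rule gave none, and no gene list could be described without gene names. The files hold no mean spot signal, so normexp used the median signal with an offset of 50. Members, lists and tests were chosen with earlier results of these data known.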

Additional observations from a re-analysis of the deposited data

How the results depend on the processing

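The count of 5 probes was within 1.5 times with the percentile of probes detected on all arrays, the authors' values, the 433 probes alone, saturated spots left out, outlier spots kept, the median over spots and a threshold of 0.1. It was 13 with array median scaling, 1 with spike-in scaling, and 0 with normexp and quantile normalization, with probes detected on all 6 arrays, with no filter and with the 6 arrays only (55, 23, 75 and 34 at an unadjusted p below 0.05). It was 1 with slide as a fixed block, 2 with scan day as a fixed block, 18 with brightness as a covariate, and 24 with slide as a random block, whose estimated correlation was -0.125. Array weights, whose estimation stopped before it converged, gave 61, with weights from 0.176 on Ag-NPs 100 replicate 1 to 8.09 on AgNO3 100 replicate 1. Leaving out 1 array gave 0 to 7. The causes were not tested, except that fewer arrays or other probes entered some fits by construction. Replicate numbers did not pair the samples: same-numbered arrays deviated from their group means with r = -0.231, -0.308 and 0.742, and the replicate block gave 8 probes, all 5 among them. Of the 5 probes, 0 passed at 200 mg/kg, but 2 did with brightness as a covariate, 5 with array weights and 0 to 1 without 1 array. No interaction passed with slide or the replicate block or median scaling. The 30 probes detected with AgNO3 alone were 20 to 23 under other detection flags and 30 to 52 without 1 array, and the 0 detected with Ag-NPs alone 0 to 2. The slide block raised the median standard error to 0.63, against 0.45 without it.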

Other observations

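The brightest arrays of the 2 forms deviated from their group means in a like way. The deviations of Ag-NPs 100 replicate 1 and AgNO3 100 replicate 2 from their group means correlated at r = 0.821 across the 446 tested probes, and their 75th percentiles of signal were 44.5 and 54.3. With AgNO3 100 replicates 1 and 3, the dimmer arrays, Ag-NPs 100 replicate 1 had r = -0.231 and -0.803. Deviations sum to 0 within a group of 3, so the other correlations follow in part from the r of 0.821.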
